A study of Mus musculus with 8 samples.

Results

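The 9 genes described here, Bhmt, Bhmt2, Gnmt, Mat2a, Ahcy, Ahcyl1, Mtr, Cbs and Aldh1l1, encode enzymes or enzyme-like proteins of the methionine cycle and of folate one-carbon metabolism. They were chosen by name for their place in homocysteine remethylation, in the synthesis and use of S-adenosylmethionine (SAM) and in folate metabolism. Earlier results of these data were known at that choice. All 9 were found among the 55414 genes of the expression table. The study asked how valine, a branched-chain amino acid, acts on the testis of male mice. RNA sequencing of whole testis tissue was made for 4 valine samples and 4 control samples. The sources used here do not give the strain and age of the mice, the dose, route and length of the valine treatment, what the control mice received, or whether each sample came from its own mouse. The p-values therefore reflect only how far these samples spread, and that spread may be technical.

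The methionine cycle turns methionine into SAM, the methyl donor of most cellular methylation reactions. Each methyl transfer leaves S-adenosylhomocysteine (SAH), which is split to adenosine and homocysteine. Homocysteine is then methylated back to methionine, with the methyl group taken from folate or from betaine, or it leaves the cycle through transsulfuration toward cysteine. The betaine route and the SAM-consuming enzyme glycine N-methyltransferase are best known from liver and kidney, where their levels are high.

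The start sites of 4 of the genes are shown because these genes differed in the comparison: Bhmt, Gnmt and Aldh1l1 had the largest falls in valine testes among the 8 tested genes, and Bhmt2, the paralog beside Bhmt on chromosome 13, did not pass the test. Each stretch is a RefSeq promoter window of 300 bases on the GRCm38.p6 assembly, from 250 bases before to 50 bases after the annotated start, printed 5′ to 3′ along the gene's own strand. Bhmt lies at chr13:93637709-93638008 (minus strand), Bhmt2 at chr13:93674253-93674552 (minus strand), Gnmt at chr17:46729116-46729415 (minus strand) and Aldh1l1 at chr6:90550543-90550842 (plus strand). Capitals mark AGGTCA, a hexamer bound by many nuclear receptors, or its reverse complement TGACCT.
Bhmt: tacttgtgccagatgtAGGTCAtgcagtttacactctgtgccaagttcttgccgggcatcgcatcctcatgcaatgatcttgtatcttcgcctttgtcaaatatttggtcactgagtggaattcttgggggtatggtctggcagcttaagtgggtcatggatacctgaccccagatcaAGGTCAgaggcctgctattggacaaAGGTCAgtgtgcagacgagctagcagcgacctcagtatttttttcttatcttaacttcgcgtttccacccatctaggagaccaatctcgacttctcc
Bhmt2: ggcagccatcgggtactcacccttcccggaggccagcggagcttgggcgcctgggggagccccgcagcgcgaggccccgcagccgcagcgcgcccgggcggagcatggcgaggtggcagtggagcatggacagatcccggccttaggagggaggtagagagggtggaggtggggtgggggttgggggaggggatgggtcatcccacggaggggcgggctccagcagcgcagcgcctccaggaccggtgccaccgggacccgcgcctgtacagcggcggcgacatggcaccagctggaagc
Gnmt: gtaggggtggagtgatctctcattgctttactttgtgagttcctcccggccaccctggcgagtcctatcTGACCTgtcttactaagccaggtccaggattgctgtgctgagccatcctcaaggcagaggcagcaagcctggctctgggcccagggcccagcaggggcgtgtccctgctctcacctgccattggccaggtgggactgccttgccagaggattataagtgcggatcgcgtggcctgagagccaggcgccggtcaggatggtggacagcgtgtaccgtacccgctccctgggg
Aldh1l1: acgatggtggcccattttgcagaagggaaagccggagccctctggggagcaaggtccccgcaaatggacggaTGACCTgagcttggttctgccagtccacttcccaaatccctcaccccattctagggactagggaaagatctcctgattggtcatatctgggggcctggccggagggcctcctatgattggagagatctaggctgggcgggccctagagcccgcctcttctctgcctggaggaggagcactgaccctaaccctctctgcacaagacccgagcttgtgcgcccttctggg
The Bhmt window held AGGTCA 3 times, at 234, 72 and 47 bases before the start. The Gnmt and Aldh1l1 windows held it once each, on the opposite strand, and the Bhmt2 window had no match. Over both strands, AGGTCA was present in 4 of the 9 genes' windows (Bhmt, Gnmt, Ahcy and Aldh1l1), and in 16% of 27025 promoter windows of the same length. The longer motif CAAGGTCA, which contains AGGTCA and therefore overlaps it, was present in 1 of the 9, Bhmt, and in 1.53% of all windows. TATAAA was present in 2 of the 9, Mat2a and Ahcyl1, and in 14.2% of all windows. These matches describe letters only.

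The deposited values are FPKM, in which fragment counts are divided by gene length, here that of all annotated exons together, and by a factor for each sample. Whole fragments could be recovered from them, 17379528 to 19820761 per sample in the valine group and 16741658 to 19405565 in the control group, so the depths of the groups overlapped. The recovered factors were 6643282 to 7610118 in valine and 6679001 to 7674833 in control samples and thus differed from these totals, and the sources used here do not say how they were set. The FPKM totals were higher in every valine sample (1027662 to 1070524) than in any control sample (944659 to 974626). Of the 22077 genes that averaged 1 FPKM or more, limma called 954 higher and 974 lower in valine testes at an adjusted p below 0.05. After rescaling to equal totals these were 363 higher and 2022 lower, with a median change over all tested genes of -0.08 on the log2 scale in place of 0.02. All changes below are valine minus control on the log2(FPKM + 1) scale, where changes of low genes come out too small, and are given with their standard error (SE).

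Of the 9 genes, 5 had lower transcript levels in valine testes by limma (Bhmt, Gnmt, Aldh1l1, Ahcyl1 and Mat2a) and 0 had higher ones, also at an unadjusted p below 0.05 and by voom, limma's weighted fit to counts, run here on the recovered fragments and chosen after seeing the data. Bhmt, Gnmt and Aldh1l1 fell by more than 1 on the log2 scale, and Mat2a and Ahcyl1 by about 0.24 and 0.25. Bhmt2, Ahcy and Mtr did not pass the threshold, and Cbs was below the expression filter, so 8 of the 9 were tested. Among all tested genes 4.41% were called lower and 4.32% higher, and voom called 5.99% of 21688 genes lower and 4.65% higher. At an unadjusted p below 0.05 the shares of all tested genes were 11.8% lower and 13.8% higher. The 8 tested genes had a median change of -0.24, against 0.02 over all tested genes. Of the 8, 6 were lower without overlap between the groups, against 9.39% of all tested genes. As the genes were chosen with earlier results of these data known, these comparisons with all genes are a description and not a test. The count of 5 was 4 without control replicate 3 and 3 without any 1 of the other samples, Mat2a and Ahcyl1 being the genes near the threshold. In order of mean FPKM over the 8 samples the genes ran from Mat2a (69.2) through Bhmt (38.1), Ahcyl1 (30.04), Mtr (16.4), Aldh1l1 (11.8), Ahcy (10.3), Gnmt (3.44) and Bhmt2 (1.79) to Cbs (0.537). In control testes Bhmt, at a mean of 61.5 FPKM, overlapped Mat2a, at 75.0 FPKM, in its range over samples. In valine testes the Bhmt range lay below those of Mat2a and Ahcyl1 and overlapped those of Mtr and Ahcy. Such comparisons between genes depend on the length used, that of all exons, 5758 bases for Bhmt and 6690 for Ahcyl1. Their longest coding transcripts have 2490 and 3863 bases, so both levels would be higher with transcript length.

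**Figure D1:**
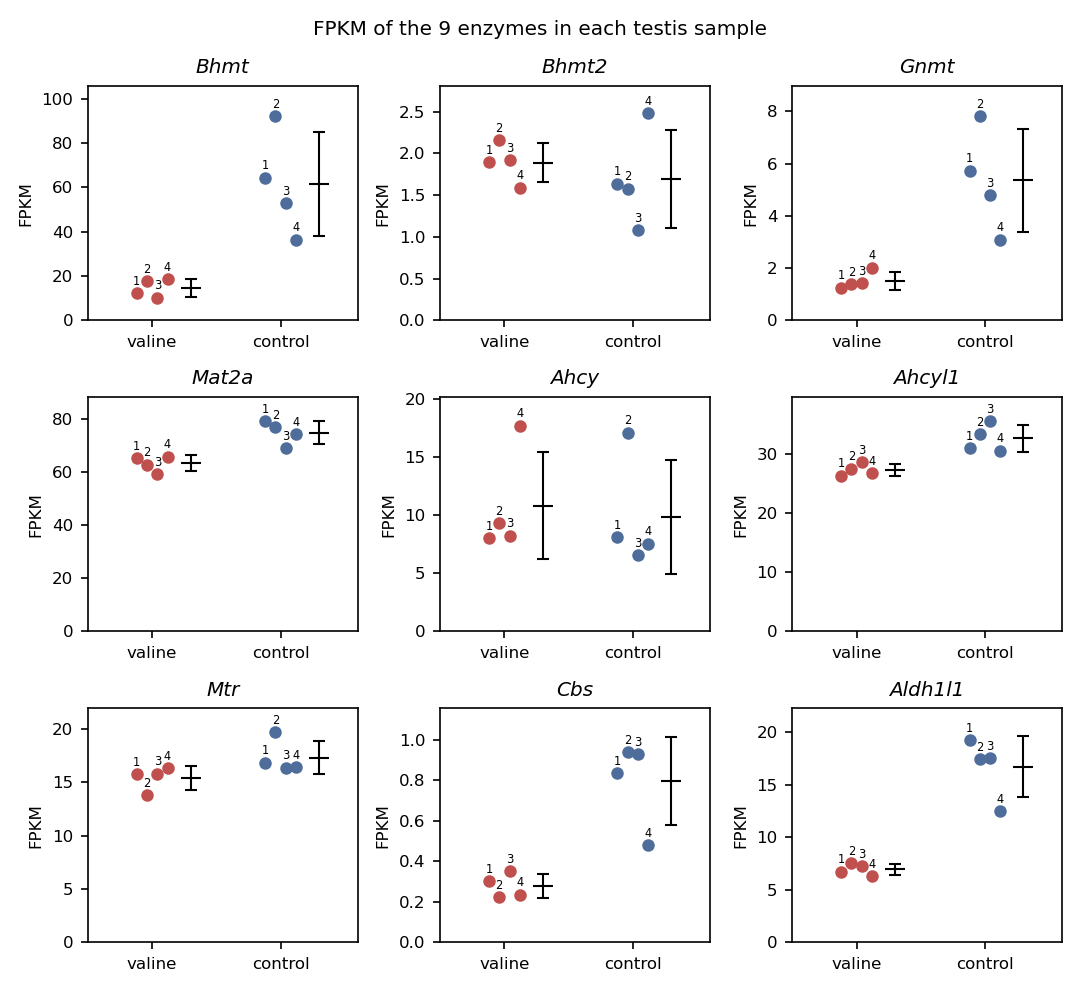
FPKM of the 9 enzymes in each of 4 valine samples (left, red) and 4 control samples (right, blue), with replicate numbers beside the points and black bars for mean ± SD; each panel has its own axis from 0. All valine samples lie below all control samples for Bhmt, Gnmt, Mat2a, Ahcyl1, Mtr, Cbs and Aldh1l1, while Bhmt2 and Ahcy overlap.

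Homocysteine remethylation was represented by Bhmt, Bhmt2 and Mtr. Bhmt (ENSMUSG00000074768), betaine-homocysteine methyltransferase, passes a methyl group from betaine to homocysteine. It had 12.3, 17.6, 10.2 and 18.5 FPKM in valine replicates 1 to 4, against 64.4, 92.1, 52.9 and 36.5 FPKM in control replicates 1 to 4. The lowest control sample, replicate 4, was above the highest valine sample, so the groups did not overlap. The means were 14.7 ± 4.04 FPKM in valine and 61.5 ± 23.4 FPKM in control testes (SD, n = 4 each), and the valine mean was 0.238 of the control mean. The log2 change was -1.96 ± 0.29 (SE; 95% interval -2.61 to -1.31; limma adjusted p = 0.00729).

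Part of the Bhmt sequence is not its own. Of the 50-base stretches of its longest coding transcript in GENCODE vM21, 59.6% also occur in transcripts of other genes, 56.9% in Gm5096 and 31.8% in the pseudogene Bhmt-ps1. The Bhmt level is uncertain to the extent that the authors' counting split fragments between these copies, a step not given in the sources used here. Gm5096 had 3.39, 5.18, 2.61 and 5.52 FPKM in valine and 24.6, 35.6, 20.1 and 15.2 FPKM in control replicates 1 to 4. Bhmt-ps1 had 0.123, 1.14, 0.537 and 0.664 FPKM in valine and 4.26, 6.24, 3.63 and 2.39 FPKM in control replicates. Both copies were lower in every valine sample than in any control sample, as Bhmt was.

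Bhmt2 (ENSMUSG00000042118), the neighbouring paralog, uses S-methylmethionine as its methyl donor. It had 1.89, 2.16, 1.92 and 1.59 FPKM in valine and 1.64, 1.58, 1.08 and 2.48 FPKM in control replicates 1 to 4, from 134 and 121 recovered fragments in all. The control samples spanned the whole valine range, and the change of 0.12 ± 0.17 (SE; 95% interval -0.27 to 0.51) did not pass (limma adjusted p = 0.702). A share of 0.41% of the Bhmt stretches occur in Bhmt2. RefSeq places Dmgdh, which encodes dimethylglycine dehydrogenase and acts on the product of Bhmt, directly after Bhmt2 on chromosome 13. Dmgdh was below the expression filter, with 0.132, 0.123, 0.192 and 0.159 FPKM in valine and 0.649, 0.175, 0.304 and 0.234 FPKM in control replicates, and its groups overlapped.

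Mtr (ENSMUSG00000021311), the cobalamin-dependent methionine synthase, takes the methyl group from folate. It had 15.8, 13.8, 15.8 and 16.4 FPKM in valine and 16.8, 19.7, 16.4 and 16.4 FPKM in control replicates 1 to 4. The highest valine sample, replicate 4, lay just below the lowest control sample, replicate 3, at 16.352 and 16.379 FPKM. The change of -0.16 ± 0.08 (SE; 95% interval -0.35 to 0.03) did not pass (limma adjusted p = 0.284). Bhmt over Mtr was 0.779, 1.28, 0.645 and 1.13 in valine samples and 3.82, 4.68, 3.23 and 2.22 in control samples, without overlap. Bhmt made up 36.5 to 52.5% of the summed FPKM of Bhmt, Bhmt2 and Mtr in valine testes, against 65.9 to 81.2% in control testes. The sum itself was 27.9 to 36.4 FPKM in valine and 55.4 to 113.4 FPKM in control testes. These ratios and shares rest on the length of all exons, 5758 bases for Bhmt and 8524 for Mtr. The longest coding transcripts have 2490 and 8294 bases, so with transcript length Bhmt would stand higher against Mtr in every sample.

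**Figure D2:**
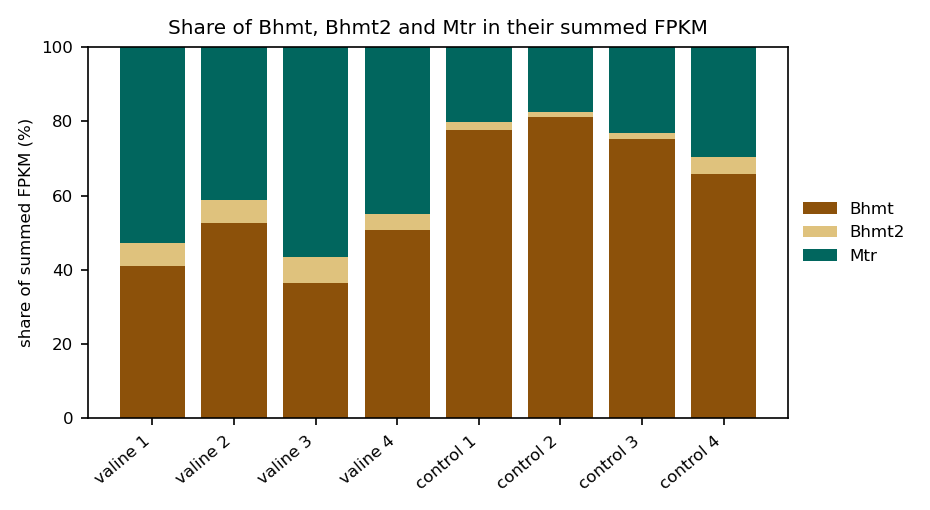
Stacked bars of the share (%) of Bhmt, Bhmt2 and Mtr in their summed FPKM, for 4 valine samples (left) and 4 control samples (right). Bhmt holds 36.5 to 52.5% of the sum in valine samples and 65.9 to 81.2% in control samples, and Mtr the larger part of the rest in every sample.

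Mat2a (ENSMUSG00000053907) encodes the catalytic subunit of the SAM synthetase found in most tissues outside the adult liver. Its transcript carries, in its 3′ UTR, hairpins bound by the methyltransferase METTL16, through which SAM levels are known to set splicing and stability of the transcript in human cells. The transcript Mat2a-201 of GENCODE vM21 (chromosome 6, minus strand, GRCm38) held the 9-base core TACAGAGAA or TACAGAAAA at 6 places, all within its 3′ UTR of 1494 bases, searched on the sense strand only. They are shown in order with 10 bases on each side, the core in capitals, from chr6:72434235-72434263 for the first to chr6:72432938-72432966 for the last.
Site 1: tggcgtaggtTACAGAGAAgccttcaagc
Site 2: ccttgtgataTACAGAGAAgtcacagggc
Site 3: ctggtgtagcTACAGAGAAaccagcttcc
Site 4: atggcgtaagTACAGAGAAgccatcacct
Site 5: caaggtgtccTACAGAAAAaccttgggtt
Site 6: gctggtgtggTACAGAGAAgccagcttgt
At least 1 such core was present in the last 1494 bases of 4.03% of 16939 protein-coding genes' longest transcripts, and 1 of them, Mat2a, held 6.

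Mat2a had 65.3, 62.9, 59.4 and 66.0 FPKM in valine and 79.4, 77.1, 69.1 and 74.5 FPKM in control replicates 1 to 4. All valine samples were below all control samples, although the gap between the groups was smaller than the range from lowest to highest sample within either. The means were 63.4 ± 2.999 FPKM in valine and 75.0 ± 4.43 FPKM in control testes (SD, n = 4 each), and the valine mean was 0.845 of the control mean. The change was -0.24 ± 0.06 (SE; 95% interval -0.37 to -0.10; limma adjusted p = 0.0432). The call was lost without the expression filter (limma adjusted p = 0.0685), without the mean-variance trend (0.0835), after removal of a trend on gene length (0.11) and in 7 of 8 fits that left out 1 sample. Mettl16 itself had 5.32 ± 0.28 FPKM in valine and 5.43 ± 0.10 FPKM in control testes (SD, n = 4 each; limma adjusted p = 0.863). Mat2b, the regulatory subunit of the enzyme, had 6.42 ± 0.22 FPKM in valine and 7.49 ± 0.55 FPKM in control testes and did not pass (change -0.19 ± 0.08 SE; limma adjusted p = 0.159). Mat1a, the liver form of the synthetase, was below the filter, with 0.217 to 0.417 FPKM in valine and 0.038 to 0.130 FPKM in control testes, from 34 and 10 fragments in all, without overlap. With no filter its change did not pass by limma (0.28 ± 0.07 SE; adjusted p = 0.0809) or by voom (adjusted p = 0.0786).

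Gnmt (ENSMUSG00000002769), glycine N-methyltransferase, consumes SAM to methylate glycine and is regarded as a buffer of the SAM pool in liver. It had 1.25, 1.39, 1.42 and 2.02 FPKM in valine and 5.73, 7.82, 4.79 and 3.09 FPKM in control replicates 1 to 4. The groups did not overlap, and replicate 4 was the highest valine and the lowest control sample. The valine mean was 1.52 ± 0.34 FPKM and the control mean 5.36 ± 1.97 FPKM (SD, n = 4 each), a ratio of 0.284. The change was -1.29 ± 0.23 (SE; 95% interval -1.81 to -0.77; limma adjusted p = 0.0135). These values rest on 53 fragments over the valine samples (95% Poisson interval 39.7 to 69.3) and 183 over the control samples (157.4 to 211.5), intervals that cover counting error only. Gnmt was 0.079 to 0.139 of Bhmt in valine samples and 0.0847 to 0.0905 of Bhmt in control samples, so that the ranges of this ratio overlapped.

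Ahcy (ENSMUSG00000027597), the hydrolase that splits SAH, had 8.05, 9.34, 8.25 and 17.7 FPKM in valine and 8.13, 17.1, 6.55 and 7.55 FPKM in control replicates 1 to 4. In each group 1 sample stood apart at about the same high level, valine replicate 4 and control replicate 2, and the other samples lay between 6.55 and 9.34 FPKM. The change of 0.15 ± 0.32 (SE; 95% interval -0.59 to 0.89) did not pass (limma adjusted p = 0.818), and it was -0.09 without valine replicate 4 and 0.43 without control replicate 2. Of the 50-base stretches of the Ahcy transcript 77% also occur in other genes' transcripts, 74.1% in Gm4737 and 33.9% in Gm9826, so the Ahcy level is uncertain in the same way as that of Bhmt. Gm4737 had 17.9, 20.9, 17.0 and 16.1 FPKM in valine and 17.9, 13.5, 17.2 and 16.5 FPKM in control replicates 1 to 4. Its value was the lowest of its group in valine replicate 4 and in control replicate 2, the samples in which Ahcy was highest.

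Ahcyl1 (ENSMUSG00000027893), an AHCY-like protein also named IRBIT that binds inositol trisphosphate receptors, had 26.4, 27.6, 28.7 and 26.8 FPKM in valine and 31.1, 33.5, 35.7 and 30.7 FPKM in control replicates 1 to 4. The highest valine sample was below the lowest control sample. The means were 27.4 ± 1.01 FPKM in valine and 32.7 ± 2.32 FPKM in control testes (SD, n = 4 each), and the change was -0.25 ± 0.06 (SE; 95% interval -0.39 to -0.10; limma adjusted p = 0.0489). It was not called without the expression filter (limma adjusted p = 0.0735), without the mean-variance trend (0.0775), after removal of a trend on gene length (0.165) or in any of 8 fits that left out 1 sample. Voom called it with the filter (adjusted p = 0.033) and not without it (adjusted p = 0.0573). The related Ahcyl2 had 19.7 ± 1.27 FPKM in valine and 19.8 ± 0.76 FPKM in control testes (SD, n = 4 each; limma adjusted p = 0.978). Adk, adenosine kinase, which removes the other product of SAH hydrolysis, had 5.55 ± 0.30 FPKM in valine and 4.91 ± 0.53 FPKM in control testes (SD, n = 4 each; limma adjusted p = 0.345).

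Cbs (ENSMUSG00000024039), cystathionine beta-synthase, takes homocysteine into transsulfuration. It had 0.302, 0.224, 0.351 and 0.235 FPKM in valine and 0.836, 0.94, 0.93 and 0.48 FPKM in control replicates 1 to 4, from 60 fragments (95% Poisson interval 45.8 to 77.2) and 169 fragments (144.5 to 196.5) over the group. All valine samples were below all control samples, and the valine mean was 0.349 of the control mean. With no expression filter the change was -0.48 ± 0.11 (SE) and did not pass (limma adjusted p = 0.0654). In the voom fit without a filter it was -1.45 ± 0.31 (SE; adjusted p = 0.0171), where 3.1% of 40949 genes were called lower. Cth, cystathionine gamma-lyase, the enzyme after Cbs, had 1.40, 0.301, 0.282 and 1.99 FPKM in valine and 4.20, 3.004, 3.29 and 1.91 FPKM in control replicates 1 to 4. The groups overlapped through replicate 4 of each, and the change of -1.11 ± 0.32 (SE) did not pass (limma adjusted p = 0.0663). It passed with equal totals (limma adjusted p = 0.0459) and in the voom fit to the tested genes (adjusted p = 0.0344).

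Aldh1l1 (ENSMUSG00000030088), 10-formyltetrahydrofolate dehydrogenase, turns 10-formyltetrahydrofolate into tetrahydrofolate and carbon dioxide and so removes one-carbon units from the folate pool. It had 6.73, 7.50, 7.25 and 6.30 FPKM in valine and 19.2, 17.4, 17.5 and 12.5 FPKM in control replicates 1 to 4. The valine samples lay close together, all below the lowest control sample, replicate 4. The means were 6.95 ± 0.54 FPKM in valine and 16.7 ± 2.91 FPKM in control testes (SD, n = 4 each), a ratio of 0.416, from 903 and 2152 fragments. The change was -1.14 ± 0.13 (SE; 95% interval -1.43 to -0.85; limma adjusted p = 0.00358), and no 50-base stretch of its transcript occurs in another gene. Its mitochondrial counterpart Aldh1l2 was below the filter, with means of 0.367 FPKM in valine and 0.458 FPKM in control testes.

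A list of 80 other genes of one-carbon metabolism, drawn up with earlier results of these data known, was read in the same fit. Of its 71 tested genes 7 were lower, 0 were higher and 64 did not pass, so 9.86% were called lower, against 4.41% of all tested genes. The median change was -0.07, against 0.02 over all tested genes, at an unadjusted p below 0.05 there were 17 lower (23.9%, against 11.8% of all tested genes) and 3 higher (4.23%, against 13.8%), and voom called 8 lower and 0 higher. With equal totals 17 of the 71 tested list genes (23.9%) were called lower, against 9.16% of all tested genes. Without control replicate 1, control replicate 2, valine replicate 2 or valine replicate 3 there were 4 list genes called lower. Whether any single arm of the list differed from all tested genes was not tested. In the betaine and choline arm 2 of 6 tested genes were lower. Sardh, sarcosine dehydrogenase, which acts on the product of Gnmt, had 1.33, 0.541, 0.581 and 0.898 FPKM in valine and 2.88, 3.06, 2.10 and 4.71 FPKM in control replicates, without overlap (change -1.17 ± 0.22 SE; limma adjusted p = 0.0164). Aldh7a1, which can oxidise betaine aldehyde to betaine, had 21.1 ± 1.66 FPKM in valine and 27.0 ± 2.20 FPKM in control testes (SD, n = 4 each; limma adjusted p = 0.0405), and with 1 sample left out it was called in 1 of 8 fits. Chdh, choline dehydrogenase, had 14.7 ± 1.10 FPKM in valine and 19.2 ± 2.87 FPKM in control testes and did not pass (SD, n = 4 each; limma adjusted p = 0.0815).

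Among genes of cobalamin handling 2 of 9 were lower (22.2%, against 4.41% of all tested genes). Tcn2, transcobalamin, which carries cobalamin into cells, had 9.61, 8.17, 8.02 and 9.21 FPKM in valine and 23.2, 21.5, 23.0 and 14.5 FPKM in control replicates, without overlap (change -1.13 ± 0.15 SE; limma adjusted p = 0.0054). Mmab, an adenosyltransferase of cobalamin, had 1.84 ± 0.20 FPKM in valine and 3.16 ± 0.65 FPKM in control testes (SD, n = 4 each; limma adjusted p = 0.0497), and it too was called in 1 of 8 fits with 1 sample left out. Mtrr, the reductase that keeps Mtr active, had 4.94 ± 0.60 FPKM in valine and 5.09 ± 0.88 FPKM in control testes and did not pass (SD, n = 4 each; limma adjusted p = 0.912).

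In the folate group 1 of 18 tested genes was lower (5.56%, against 4.41% of all tested genes). At an unadjusted p below 0.05 there were 2 lower (11.1%, against 11.8% of all tested genes). Folr1, a folate receptor, had 5.18, 4.57, 4.01 and 5.96 FPKM in valine and 10.6, 17.7, 9.67 and 9.92 FPKM in control replicates, without overlap (change -1.10 ± 0.19 SE; limma adjusted p = 0.0135). Enzymes that interconvert folate forms and are named here did not pass. Mthfd1 had 5.38 ± 0.82 FPKM in valine and 5.57 ± 0.57 FPKM in control testes (limma adjusted p = 0.84). The cytosolic serine hydroxymethyltransferase Shmt1 had 32.3 ± 4.76 FPKM in valine and 28.8 ± 0.76 FPKM in control testes (limma adjusted p = 0.383), and the mitochondrial Shmt2 had 7.06 ± 1.12 FPKM in valine and 8.02 ± 0.86 FPKM in control testes (limma adjusted p = 0.431; SD, n = 4 for each mean). These genes overlapped between the groups.

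Among small-molecule methyltransferases 1 of 7 tested genes was lower, Hnmt, histamine N-methyltransferase, at 0.459 ± 0.196 FPKM in valine and 1.73 ± 0.50 FPKM in control testes, from 23 and 87 fragments (SD, n = 4 each; limma adjusted p = 0.0223), a call kept in 4 of 8 fits with 1 sample left out. Gamt, which makes creatine, had 21.4 ± 2.13 FPKM in valine and 21.1 ± 1.94 FPKM in control testes (SD, n = 4 each; limma adjusted p = 0.91), and Nnmt was below the filter. In methionine salvage and polyamine synthesis 1 of 9 was lower, the dioxygenase gene Adi1, at 5.13 ± 0.83 FPKM in valine and 9.15 ± 1.47 FPKM in control testes (SD, n = 4 each; limma adjusted p = 0.017). Amd1, which commits SAM to polyamines, had 45.4 ± 1.87 FPKM in valine and 48.6 ± 2.44 FPKM in control testes (SD, n = 4 each; limma adjusted p = 0.316). None of the 3 genes of SAM synthesis and carriage, the 3 of SAH and adenosine, the 9 of transsulfuration and cysteine or the 7 of glycine cleavage and serine synthesis was called by limma. At an unadjusted p below 0.05 there were 1, 1, 2 and 1 lower in that order, and 1 gene of transsulfuration and cysteine was higher. Of all tested genes 11.8% were lower and 13.8% higher at that level. Voom called 1 of these genes lower, Cth, against 5.99% of all genes in that fit. Pemt, which uses SAM to make phosphatidylcholine, had 13.3, 10.8, 11.7 and 23.9 FPKM in valine and 12.4, 18.4, 10.6 and 11.5 FPKM in control replicates, high in the samples in which Ahcy was high (limma adjusted p = 0.799).

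**Figure D3:**
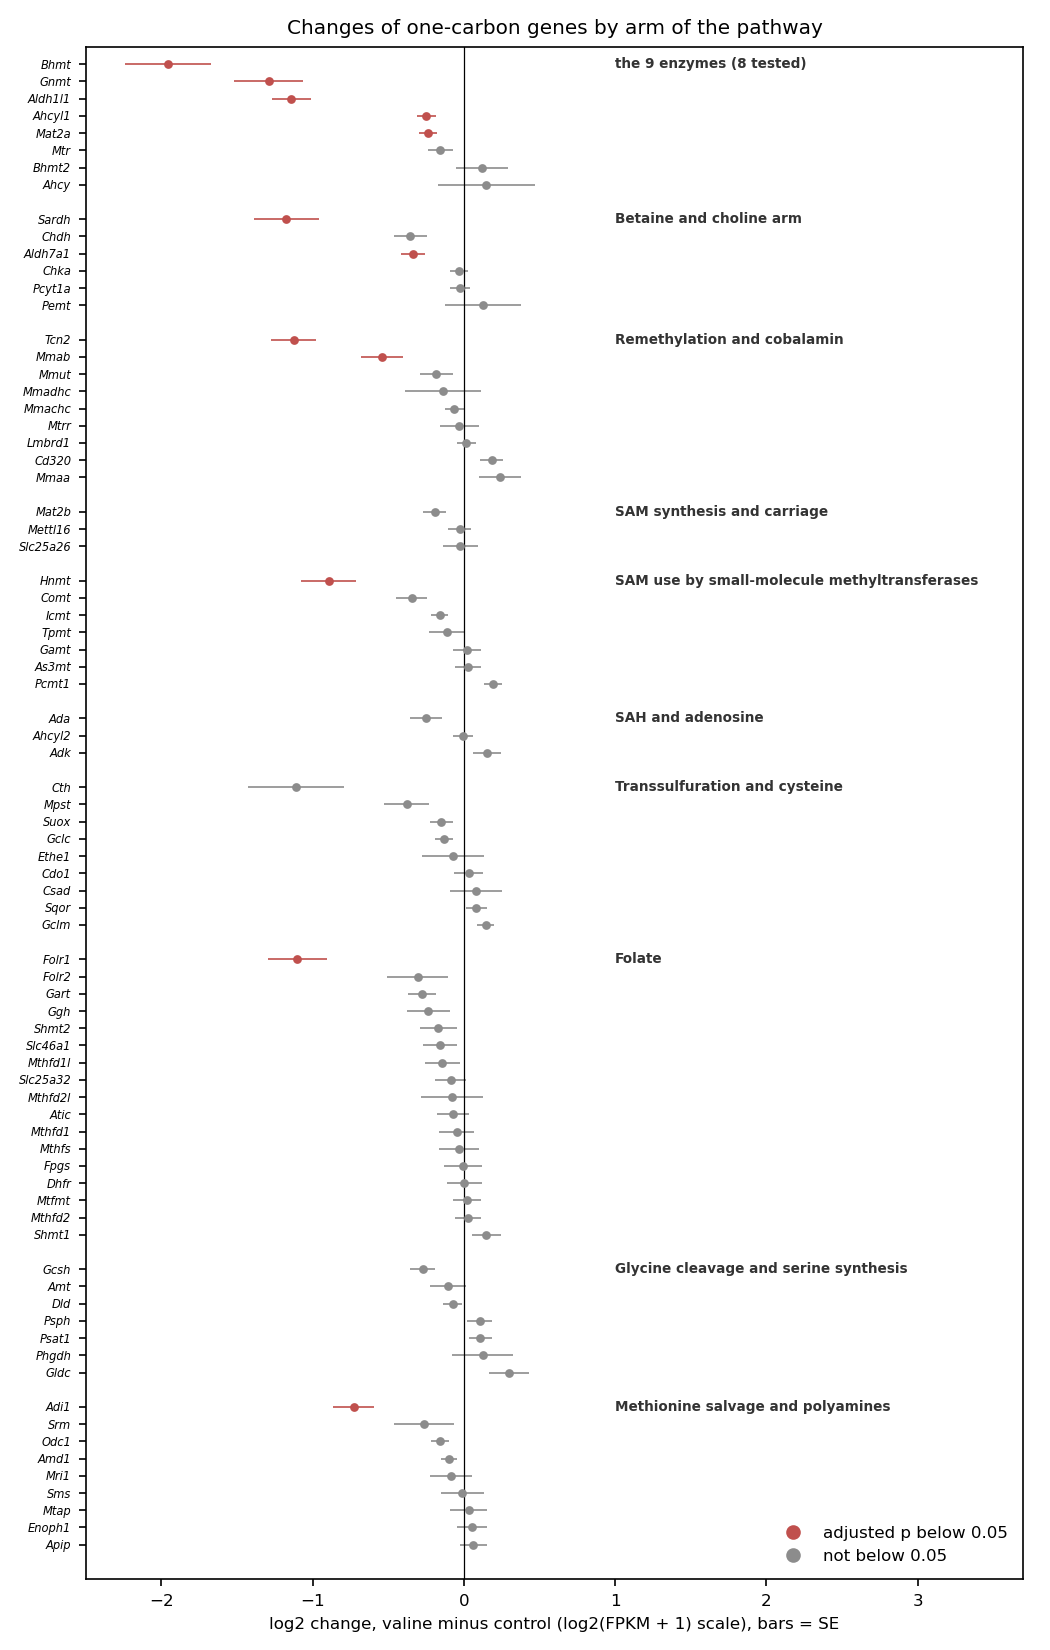
Change of tested genes, valine minus control, on the log2(FPKM + 1) scale with SE, for the 8 tested enzymes and for list genes by arm of the pathway; red marks a limma adjusted p below 0.05. The red points all lie left of 0, with 5 among the 8 enzymes and 7 among the list genes.

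Cell type markers moved between the groups as well, and in whole tissue fewer cells of a type and less RNA per cell cannot be told apart. The 8 Leydig cell markers were all called lower, with a summed level of 488 to 777 FPKM in valine and 1615 to 2284 FPKM in control testes. Of 5 macrophage markers 3 were lower (26.4 to 32.1 FPKM in valine, 61.0 to 77.6 FPKM in control), and 1 of 4 peritubular myoid markers was (28.2 to 38.8 FPKM in valine, 51.6 to 67.5 FPKM in control). The 8 Sertoli markers had 0 limma calls (722 to 782 FPKM in valine, 739 to 834 FPKM in control), as did the 5 spermatocyte markers (787 to 858 FPKM in valine, 741 to 830 FPKM in control) and the 4 round spermatid markers (892 to 1049 FPKM in valine, 830 to 976 FPKM in control). At an unadjusted p below 0.05 the Sertoli list had 1 lower and 1 higher marker, the spermatocyte list 1 higher and the round spermatid list 0. Of all tested genes 11.8% were lower and 13.8% higher at that level. Voom called 0 markers of these 3 lists. Of 3 tested endothelial markers 1 was lower (6.27 to 8.47 FPKM in valine, 10.3 to 12.3 FPKM in control). Of 5 spermatogonial markers 2 were lower, with sums of 41.5 to 47.0 FPKM in valine and 43.4 to 51.5 FPKM in control testes. All 4 elongating spermatid markers were higher, at 45554 to 56650 FPKM in valine and 34562 to 37247 FPKM in control testes. Germ cell, Sertoli and Leydig markers of testis were thus measured in every sample. The part of any of these in the lower levels of Bhmt, Gnmt, Aldh1l1, Mat2a and Ahcyl1 was not tested.

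The ratio of a gene's FPKM to that of a Leydig marker depended on the marker. For Bhmt and for Gnmt the groups overlapped over 7 of the 8 markers, and over Fdx1 both were lower in every valine sample (Bhmt 0.376 to 0.686 in valine and 1.06 to 2.23 in control samples). Fdx1 itself fell least of the 8 markers, by -0.44 on the log2 scale, against -1.28 (Insl3) to -2.52 (Cyp11a1) for the others. Aldh1l1 was higher in every valine sample over 6 of the 8 markers, among them Cyp17a1 (0.0648 to 0.0998 in valine and 0.0336 to 0.0476 in control samples). Over Insl3 its groups overlapped, and over Fdx1 it was lower in every valine sample (0.234 to 0.281 in valine and 0.362 to 0.592 in control samples). Of 8 hepatocyte markers, searched because liver is rich in Bhmt and Gnmt, 6 were under 1 FPKM in every sample, Alb, Apoa1, Ttr, Tat, Fgb and Mat1a. The other 2 had 0 calls by limma, at an unadjusted p below 0.05 and by voom. The sum over the 8 was 3.05 to 6.12 FPKM in valine and 3.61 to 11.8 FPKM in control testes. The adipocyte sum was 31.2 to 40.6 FPKM in valine and 30.7 to 86.2 FPKM in control testes, highest in control replicate 1, in which the hepatocyte and epididymis sums were also highest. In that sample Cyp2e1 gave 7.43 FPKM of the hepatocyte sum and Crisp1 gave 5.06 FPKM of the epididymis sum. Serpina1a was also highest there, at 2.77 FPKM. Alb, Apoa1, Ttr, Tat, Fgb, Mat1a and the other epididymis markers were not. Of the 4 kidney tubule markers only Aqp2 was tested, and it was lower (sum 7.45 to 11.7 FPKM in valine, 14.0 to 23.3 FPKM in control). Of the 5 epididymis markers 0 reached the filter (0 to 1.62 FPKM in valine, 0.884 to 5.75 FPKM in control), and of 5 tested adipocyte markers 1 was lower. No marker of any list was at 0 in all samples. Without control replicate 1, Bhmt, Gnmt and Aldh1l1 were still called lower, while Mat2a and Ahcyl1 were not called (limma adjusted p = 0.112 and 0.0817). In that fit 4 list genes were called lower, against 7 with all samples. The part of other tissues in these levels was not tested.

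**Figure D4:**
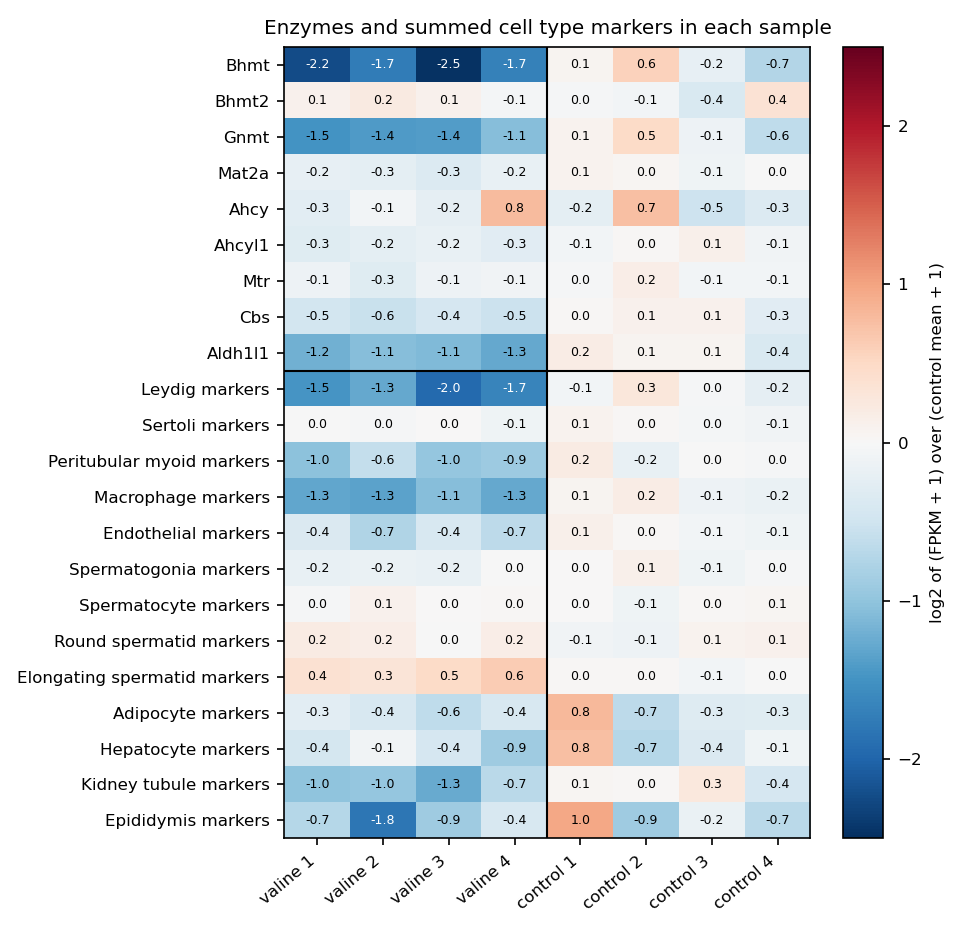
Level of each enzyme and summed level of each marker list in 4 valine samples (left) and 4 control samples (right), as log2 of FPKM + 1 over the control mean + 1, blue for lower and red for higher. Bhmt, Gnmt and Aldh1l1 are blue in all valine columns. So are the Leydig, macrophage, myoid, endothelial and kidney tubule sums, each lower in every valine sample than in any control sample. Aqp2 makes up most of the kidney tubule sum, and Slc34a1, Umod and Lrp2 of that list overlap between the groups. So do Vwf and Tek of the endothelial list, Myh11, Cnn1 and Tagln of the myoid list and Adgre1 of the macrophage list. The Sertoli and spermatocyte sums stay near 0.

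For each called enzyme the 3 genes with the most similar profile over the 8 samples were taken, by the root mean square (RMS) difference of log2 values centred on each gene's mean. Closest to Bhmt were its copy Gm5096 (RMS difference 0.15), Vcam1 (0.157) and Ces1d (0.209). Closest to Gnmt were Fcgrt (0.126), Abca1 (0.149) and Aldoc (0.177). Closest to Aldh1l1 were Scd2 (0.0796), Abcb1a (0.0927) and Ctsh (0.105). For Mat2a they were Gm7292 (0.037), Zeb1 (0.0385) and Topaz1 (0.0398), and for Ahcyl1 they were Edem1 (0.0361), Pask (0.0376) and Vps39 (0.0399). Vcam1, a cell adhesion molecule, had 5.17 ± 1.73 FPKM in valine and 21.0 ± 7.09 FPKM in control testes, and Scd2, a fatty acid desaturase, 51.9 ± 1.32 FPKM in valine and 123.1 ± 22.0 FPKM in control testes (SD, n = 4 each). As the neighbours were picked on these same 8 samples, their differences between the groups follow from the choice. The RMS difference is smaller for genes that vary little, so the RMS values cannot be ranked across enzymes.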

How the data were processed

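Per the labels' protocols, RNA of frozen testis was extracted with Trizol before library construction (Illumina TruSeq). The authors deposited FPKM values for 55414 Ensembl genes in 8 samples. HISAT2 and the assembly GRCm39 are named per the submitters' processing notes. The sources used here do not give the quantifier, the annotation release, the strand setting or the treatment of fragments that match several genes. Columns were matched to samples by the group name and replicate number in their headings, and 0 per-sample columns were left unused. No pair of samples held identical values.

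With exon lengths of GENCODE vM21, 99.3% of 121418 values under 30 fragments came out whole (tolerance 0.1 fragments), against 20.0% with lengths shuffled, which gave the recovered fragments per sample. The 8 FPKM totals (1027662 to 1070524 in valine and 944659 to 974626 in control samples) had a geometric mean of 1000000, and the factor for each sample differed from its fragment total. The sources used here do not say how the factors were set.

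Genes that averaged 1 FPKM or more were tested on the log2(FPKM + 1) scale with limma 3.58.1 in R 4.3.3. The model held treatment alone, variances were moderated with a mean-variance trend (empirical Bayes), and two-sided p-values were adjusted over all tested genes by Benjamini-Hochberg, with 0.05 as the threshold. The fit was also run on simulated data, with an outcome that is not given here. Symbols came from GENCODE vM21 and RefSeq by Ensembl identifier (52081 genes named). Promoters came from RefSeq (GRCm38.p6), and all 9 genes were matched. Since the authors' assembly differs, coordinates are given only for printed sequences. Tables and figures were made with Python 3.11.15.

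The 9 genes, the one-carbon list and the marker lists were chosen with earlier results of these data known. The text names all 9 genes, each list gene past the threshold, 18 list genes fixed by name (1 of them is not reported here), the genes beside Bhmt and Bhmt2, and the 3 nearest profiles of each called gene. Aldh1l2, the gene copies and the genes nearest to Ahcy were chosen after their values were seen. The alternatives were a pseudocount of 0.1, no expression filter, a mean of at least 5 FPKM, equal totals, quantile normalisation, no mean-variance trend, the replicate block, removal of a loess trend on gene length, leaving out each sample and, chosen after seeing the data, voom on the recovered fragments with and without the filter.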

Additional observations from a re-analysis of the deposited data

Results flagged for a closer look

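In 66 groups of 4 samples, the named genes of the pathway in each treatment, the highest or the lowest sample was checked for a wide gap to the nearest other sample. A gap counted as wide when its share of the group's whole range was above Dixon's critical value for 4 samples, and chance gives one in about 1 of 20 groups. There were 7 such gaps. Ahcy had 2 of them, with 17.7 FPKM in valine replicate 4 (gap 0.867 of the range) and 17.1 FPKM in control replicate 2 (0.85), each the highest of its group. Control replicate 2 was also the highest control sample for Mtr at 19.7 FPKM (0.859), for Folr1 at 17.7 FPKM (0.884) and for Adi1 at 11.4 FPKM (0.946), and the lowest for Shmt1 at 27.7 FPKM (0.857). Valine replicate 1 was the lowest valine sample for Aldh7a1 at 18.7 FPKM (0.927). Without control replicate 2 the change of Ahcy was 0.43, that of Mtr -0.10, that of Folr1 -0.91 and that of Adi1 -0.63 on the log2 scale.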

How the results depend on the processing

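Bhmt and Aldh1l1 were called lower under every alternative run, and Gnmt under each that tested it apart from the replicate block. Mat2a and Ahcyl1 lost their calls under several, and the depth of Gnmt, Cbs and Hnmt, with under 100 fragments per group in valine, limits their folds. The number of the 9 genes called lower (5) was 3 without the expression filter, 3 without the mean-variance trend, 3 after removal of the length trend and 3 to 4 with 1 sample left out. The list genes called lower (7) were 4 at a mean of at least 5 FPKM, 17 with equal totals and 4 to 7 with 1 sample left out. Over all genes, 954 higher became 568 without the filter, 363 with equal totals, 398 with quantile normalisation, 503 without the trend, 475 after removal of the length trend and 381 to 795 with 1 sample left out, and 974 lower became 2022 with equal totals and 461 to 802 with 1 sample left out. Voom on recovered fragments, chosen after seeing the data, gave 1008 higher and 1300 lower, 5 of the 9 genes and 8 of the list. Without the filter voom also called 5 of the 9 lower, with Cbs in place of Ahcyl1. The causes were not tested.

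With the replicate number as a block the counts were 581 higher and 489 lower over all genes, 2 of the 9 genes (limma adjusted p = 0.0549 for Gnmt, 0.0549 for Mat2a and 0.0666 for Ahcyl1) and 4 of the list, Hnmt being among those lost (0.0567). The deviations of same-numbered valine and control samples from their group means had correlations of -0.0167, -0.0401, 0.104 and 0.111 for replicates 1 to 4, and 3 of 8 samples correlated best with their own number. The numbers were therefore not taken to pair the samples.

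Genes far from the threshold changed sign. After removal of the length trend the changes were 0.027 for Mtrr, 0.109 for Mettl16, 0.146 for Ahcyl2 and -0.092 for Gamt, and Gamt was also at -0.090 with equal totals and at -0.0047 with quantile normalisation. With 1 sample left out the changes spanned -0.094 to 0.429 for Ahcy, -0.113 to 0.051 for Mtrr, -0.040 to 0.030 for Ahcyl2, -0.123 to 0.0034 for Mthfd1, -0.109 to 0.287 for Pemt, -0.042 to 0.066 for Gamt, -0.073 to 0.411 for Gm15538 and -0.326 to 0.050 for Gm14064. The causes were not tested.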

Other observations

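By the same profile measure used for the called enzymes, the genes nearest to Ahcy, chosen after its values were seen, were Pemt (RMS difference 0.188), Gm15538 (0.204) and Gm14064 (0.216). Gm14064 had 7.66, 10.98, 8.32 and 15.7 FPKM in valine and 10.6, 17.3, 8.15 and 11.2 FPKM in control replicates 1 to 4, and Gm15538 had 1.44, 3.13, 1.68 and 4.76 FPKM in valine and 2.08, 4.31, 0.946 and 2.13 FPKM in control replicates. Each was highest in valine replicate 4 and in control replicate 2 within its group, and neither differed between the groups by limma (adjusted p = 0.784 for Gm14064 and 0.823 for Gm15538).

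Slc19a1, the reduced folate carrier, was below the expression filter and was chosen after its values were seen. It had 0.648, 0.784, 0.651 and 0.467 FPKM in valine and 1.07, 1.32, 1.40 and 0.946 FPKM in control replicates 1 to 4, from 85 and 156 fragments, without overlap between the groups. With no filter its change did not pass by limma (-0.41 ± 0.12 SE; adjusted p = 0.136) or by voom (-0.88 ± 0.25 SE; adjusted p = 0.0684).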
